A study of Drosophila melanogaster with 2 samples.

Results

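The genes described here encode the subunits of the 26S proteasome of Drosophila melanogaster, and the measurement is where a tagged p53 protein was found on their chromatin. Members were taken by symbol from the Ensembl annotation: every protein-coding gene whose symbol starts with Prosalpha, Prosbeta, Rpn or Rpt followed by a number. This gave 48 of 13945 protein-coding genes on the 6 chromosome arms that the peak lists name. Of the 48, 25 are core particle genes (Prosalpha and Prosbeta) and 23 are regulatory particle genes (Rpn and Rpt). By another division, 16 carry a T or R after the first number of the symbol and are called testis-type paralogues here, and the other 32 are called main genes. The rule reads symbols and no measured value, but the family was chosen with earlier results of these data known.

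The assay was chromatin immunoprecipitation with sequencing. The animals were whole embryos aged 0 to 24 h, males and females pooled, of 1 fly strain (p53-MiMIC-GFP). In this strain an eGFP exon sits in an intron of the endogenous p53 gene, which then makes a p53-eGFP fusion protein; the labels give the antibody as p53 in a field of its own and as anti-GFP in the description. The study holds 1 group of 2 biological replicates, numbered 2 and 3, with no second condition. All embryonic cell types and ages were mixed, so a region bound in few cells and a region bound weakly in many cannot be told apart. Testes of adult males were not sampled. The control library was not analysed here.

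The proteasome degrades proteins that carry ubiquitin chains. Its core particle is a barrel: outer rings of alpha subunits gate the entrance, and inner rings of beta subunits hold the proteolytic sites, which lie on Prosbeta1, Prosbeta2 and Prosbeta5. The regulatory particle caps the barrel. Its Rpt subunits form a ring of ATPases that unfold the substrate, and its Rpn subunits recognise and remove ubiquitin or hold the particle together. In flies many subunits have a paralogue that is used mainly in the male germline. The fly p53 protein is a transcription factor known for its response to DNA damage.

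A gene was counted as having a peak when the summit of a peak in the final list lay within 1 kb of one of its transcription start sites (TSSs). The final list had been selected by the irreproducible discovery rate (IDR), which rests on how regions rank in both replicates, and is called the IDR list. It held 2290 peaks, which are also the 2290 strongest regions of the pooled list. The pooled list held 26752 regions, of which 3355 had a deposited q of 0.01 or less, and each replicate's list held 30000. The signal value is the authors' measure of strength and no source used here states its scale, so values were compared within a list only.

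Peaks were found at 9 of the 48 members (18.8%), and 15.5% of all protein-coding genes had one. All 9 were main genes. None of the 16 testis-type paralogues had an IDR peak, which allows a share of up to 18.8% by counting, and 9 of the 32 main genes had one (28.1%, 95% Wilson interval 15.6 to 45.4). Among main genes the core particle had peaks at 3 of 14 (21.4%, 7.57 to 47.6) and the regulatory particle at 6 of 18 (33.3%, 16.3 to 56.3). These intervals overlap widely and cover counting error only. Main genes, testis-type paralogues and all genes are not matched for gene arrangement. A coding gene on the other strand started within 1 kb upstream of 68.8% of main genes, 25% of testis-type paralogues and 36.2% of all genes. Shares by this arrangement are given below. The members were chosen with earlier results of these data known, and genes are not replicates, so no test was run on these counts.

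By role, peaks lay at 1 of 7 main alpha subunit genes, 2 of 7 beta subunit genes, 5 of 12 Rpn genes and 1 of 6 Rpt genes. In the IDR list the members' signal values ran from 92.7 to 238, with a median of 104.6. For all protein-coding genes with an IDR peak the median was 111.9, taking the strongest peak of each gene. Of the 9 members, Prosbeta1, Rpn5 and Prosalpha4 were above that median and the other 6 were below it.

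**Figure D1:**
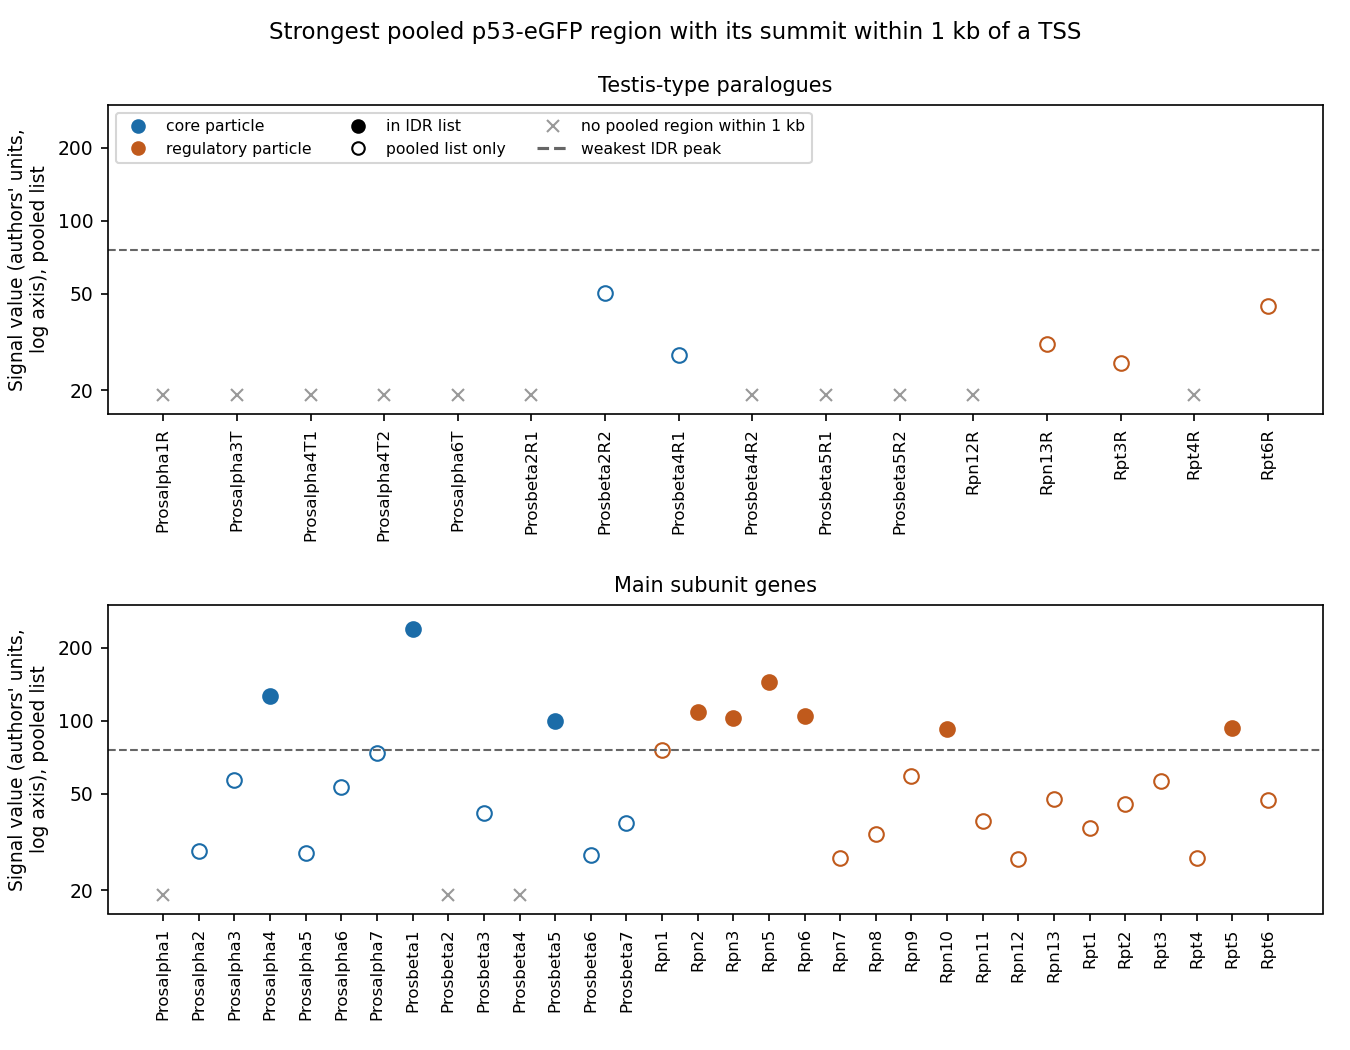
Signal value (authors' units, log axis) of the strongest pooled region with its summit within 1 kb of a TSS, for testis-type paralogues (upper panel) and main genes (lower panel). Filled points are in the IDR list, open points are in the pooled list alone, and crosses mark genes with no pooled region. The 9 filled points all lie among main genes, and the strongest testis-type value is 50.1 at Prosbeta2R2.

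Among the core particle genes, Prosbeta1 carried the strongest peak of the whole family. Prosbeta1 (FBgn0010590) encodes the beta subunit with caspase-like activity. Its peak, at chr2R:16014625-16015020 in dm6, carried 238 signal units, at rank 192. The overlapping region had a signal value of 85.6 in replicate 2 (rank 282) and 149.98 in replicate 3 (rank 176). It was the highest-ranked member region in both replicates. The summit lay 36 bp upstream of the TSS, in the intergenic stretch between Prosbeta1 and Rrp42, which encodes a subunit of the RNA exosome. The TSS of Rrp42 was 85 bp from the summit, on the other strand.

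Prosalpha4 (FBgn0004066), an outer ring gene, had a peak at chrX:16276513-16276908 with a signal value of 126 (rank 826). Replicate 2 gave 56.6 (rank 685) and replicate 3 gave 69.2 (rank 1048). Among the 9 member peaks this was the one farthest from its TSS: the summit lay 441 bp downstream, in a coding exon, and 531 bp from the TSS of the divergent neighbour kat80. The GC content within 100 bp of this summit was 57.7%, the highest of the 9, whose median was 37.8%, against a median of 40.3% over IDR peaks near a coding TSS.

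Prosbeta5 (FBgn0029134) encodes the beta subunit with chymotrypsin-like activity. Its peak at chr2R:10819706-10820101 had a signal value of 99.4 (rank 1363). The replicates differed here. The overlapping region had 68.1 in replicate 3 (rank 1086), and 30.02 in replicate 2 (rank 2529), where its summit lay 172 bp away and its deposited −log10 q was 1.36, short of a q of 0.01. The IDR summit lay 74 bp upstream of the TSS of Prosbeta5 and 20 bp from that of dgo, a gene of planar cell polarity. The third proteolytic subunit gene, Prosbeta2, had no pooled region within 1 kb. In replicate 3 it had a weak region (14.3, rank 25775), and in replicate 2 none.

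In the regulatory particle, Rpn5 (FBgn0028690), which encodes a scaffold subunit of the lid, had the strongest peak. It lay at chr3R:5789028-5789423 with a signal value of 144 (rank 611), with 52.5 in replicate 2 (rank 813) and 93.01 in replicate 3 (rank 527). The summit was 267 bp upstream of the TSS of Rpn5, inside an intron of Hat1, a histone acetyltransferase gene whose nearest TSS was 152 bp away. A second, weaker pooled region lay within 1 kb of Rpn5, as was also the case for Prosalpha4, Rpn6 and Rpt5.

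Rpn2 (FBgn0028692), a scaffold subunit of the base, had a peak at chr3R:29153240-29153635 (108, rank 1154), with 36.5 in replicate 2 (rank 1694) and 65.2 in replicate 3 (rank 1204). Its summit lay 86 bp upstream of the TSS, and 172 bp from the TSS of Slbp, which encodes the histone stem-loop binding protein. Rpn6 (FBgn0028689), a lid scaffold subunit, had a peak at chr2R:14752198-14752593 (104.6, rank 1229). There replicate 2 ranked the region higher (47.9, rank 975) than replicate 3 did (48.6, rank 2246). The summit lay in an intron of Rpn6, 125 bp upstream of its nearest TSS and 125 bp from the TSS of ave.

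Rpn3 (FBgn0261396), another lid subunit, had a peak at chr2L:19051577-19051972 (102.9, rank 1268). Replicate 2 gave 36.04 (rank 1738) and replicate 3 gave 65.2 (rank 1205), and the summit lay 15 bp upstream of the TSS and 163 bp from that of l(2)37Bb. Rpn10 (FBgn0015283) is a ubiquitin receptor of the particle, and its peak at chr3L:21536821-21537216 had a signal value of 92.7 (rank 1565), the lowest of the members in the IDR list. Among the 9 members the replicates differed most for this gene, with rank 857 in replicate 3 (75.4) and rank 8291 in replicate 2 (19.3, −log10 q of 0.35). Replicate 2's summit lay 96 bp away. The Rpn10 summit lay 19 bp downstream of a TSS, in the 5′ UTR, and no other protein-coding gene had a TSS within 1 kb of it.

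Of the ATPase genes, Rpt5 (FBgn0028684) alone had an IDR peak. It lay at chr3R:23752658-23753053 with a signal value of 93.4 (rank 1536), with 36.7 in replicate 2 (rank 1672) and 58.8 in replicate 3 (rank 1497). The summit sat between a pair of divergent start sites 42 bp apart, 20 bp from that of Rpt5 and 22 bp from that of RanBP3, a gene of nuclear transport.

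Bases at the summit are shown for Rpn5, Rpn2 and Rpt5, and those just upstream of the summit for Rpn10, so that the sequence at these peaks can be seen. Each stretch was read from the Release 6 genome (RefSeq), plus strand, which is also the strand of the gene, and is limited to bases outside annotated exons. Capitals mark the only searched word found whole in them, a TATA box word (TATAAA). The Rpt5 stretch begins inside the DREF word described below, part of which lies in an annotated exon.
Rpn5, chr3R:5789146-5789305, intron of Hat1, summit inside: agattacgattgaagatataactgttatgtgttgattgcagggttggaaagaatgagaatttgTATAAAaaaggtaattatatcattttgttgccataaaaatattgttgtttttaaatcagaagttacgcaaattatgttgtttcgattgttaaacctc
Rpn2, chr3R:29153358-29153517, between Rpn2 and Slbp, summit inside: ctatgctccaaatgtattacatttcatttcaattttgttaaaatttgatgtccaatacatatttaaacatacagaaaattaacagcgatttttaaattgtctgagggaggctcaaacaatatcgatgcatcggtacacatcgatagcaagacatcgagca
Rpt5, chr3R:23752835-23752875, between Rpt5 and RanBP3, summit inside: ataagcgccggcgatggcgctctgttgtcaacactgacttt
Rpn10, chr3L:21536862-21536999, just upstream of Rpn10, summit 19 bp past the start site: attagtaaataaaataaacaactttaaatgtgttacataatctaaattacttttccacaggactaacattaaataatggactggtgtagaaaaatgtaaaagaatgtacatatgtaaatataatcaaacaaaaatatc
The word in Rpn5 was centred 14 bp from the summit. None of the 9 member peaks held the p53 half-site within 100 bp of the summit. In the whole IDR list 4.54% of peaks held it there, and 4.12% of IDR peaks near a coding TSS did. The wider promoter window of Rpt5, searched below, did hold the half-site. The TATA box word was in the windows of Rpn5 and Rpn6, in 23.2% of all IDR peaks and in 23.3% of those near a coding TSS.

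Most of these peaks were shared with a neighbour: 8 of the 9 member peaks had a second protein-coding gene with a TSS within 1 kb of the summit, always on the other strand. The exception was Rpn10. Of the 1602 IDR peaks within 1 kb of a coding TSS, 44% lay within 1 kb of the TSSs of more than 1 coding gene. That share counts peaks, whereas the member peaks were reached through genes, so the 2 are not alike. A share counted by gene is given with the divergent promoters below. For such a peak the data do not say which of the genes it belongs to. The summit was nearer to the proteasome gene's TSS in Prosbeta1, Prosalpha4, Rpn2, Rpn3 and Rpt5, nearer to the neighbour's in Rpn5 and Prosbeta5, and equally far from both in Rpn6. In all, 7 of the 9 summits were upstream of the proteasome gene's TSS and 2 were downstream. All 7 lay between that TSS and the neighbour's, where any summit is upstream of both. The same count was not made over all IDR peaks.

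**Figure D2:**
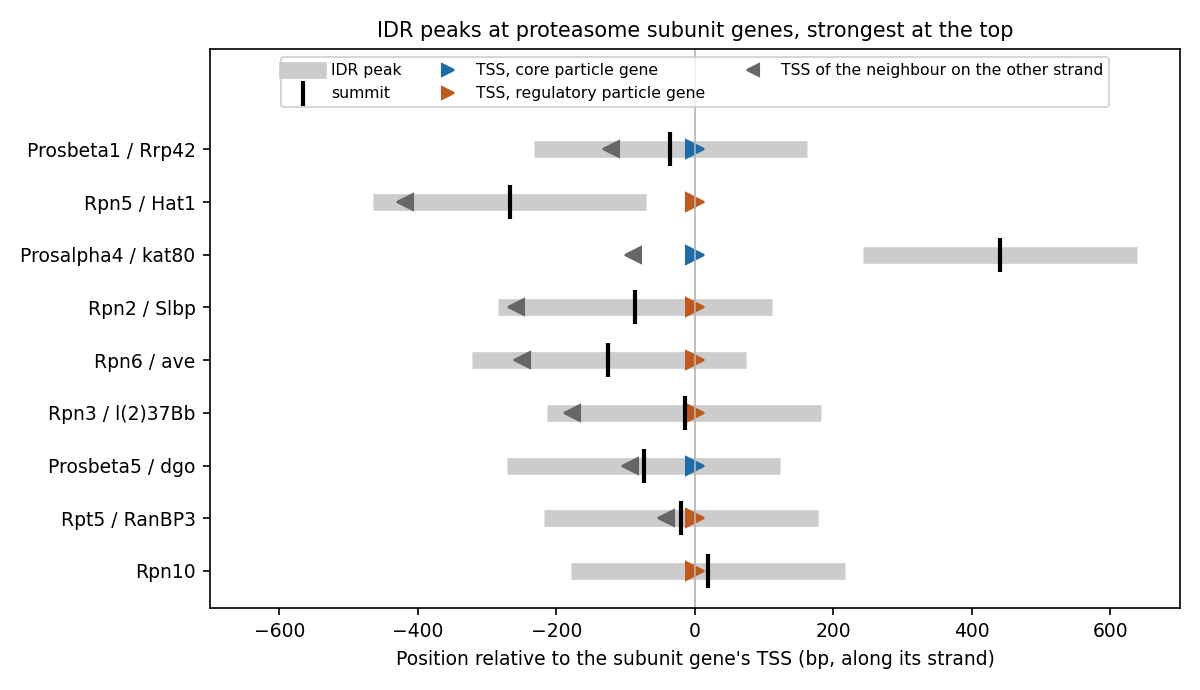
The 9 IDR peaks at proteasome genes, drawn in bp from the subunit gene's nearest TSS along its strand, strongest at the top. Grey bars are peaks, black ticks summits, coloured triangles the subunit gene's TSS and dark triangles the TSS of the neighbour on the other strand. In 7 peaks the summit lies upstream of the subunit gene's TSS, as any summit between divergent start sites does. At Prosalpha4 the summit lies 441 bp downstream.

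Divergent promoters were common in the family. A gene was called divergent when a protein-coding gene on the other strand had a TSS within 1 kb upstream. This held for 26 of the 48 members (54.2%) and for 36.2% of all protein-coding genes. Among genes with an IDR peak it held for 8 of the 9 members (88.9%) and for 63.6% of all protein-coding genes with such a peak. It held for 4 of 16 testis-type paralogues (25%) and for 22 of 32 main genes (68.8%), with 10 of 14 in the core particle and 12 of 18 in the regulatory particle. Divergent main genes had IDR peaks at 8 of 22 (36.4%, 19.7 to 57), and 27.2% of all divergent genes had one. Main genes without such a neighbour had a peak at 1 of 10 (10%, 1.79 to 40.4), and 8.86% of all genes without one did. Both intervals include the share of all genes with the same arrangement. They cover counting error only and treat genes as independent, so this is not a test. Testis-type paralogues had an IDR peak at 0 of 4 with such a neighbour, which allows up to 75%, and at 0 of 12 without one, which allows up to 25%. The division by arrangement was made after seeing the data. The arrangement moves with the presence of a peak, and its part in the count was not tested.

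The other 23 main genes were outside the IDR list. The weakest IDR peak had a signal value of 75.8. Rpn1 (FBgn0028695), a base subunit that binds ubiquitin and its shuttle factors, had a pooled region of 75.6 (rank 2305), just outside. It ranked 1561 in replicate 2 (37.9) and 2557 in replicate 3 (45.5), with a q below 0.01 in both. Prosalpha7 (FBgn0023175), an outer ring gene, followed with 73.5 (rank 2436). It had 50.6 in replicate 3 (rank 2047) and no region within 1 kb in replicate 2.

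Below these, pooled regions were present at Rpn9, Prosalpha3, Rpt3 and Prosalpha6 with signal values of 59.1, 56.9, 56.3 and 53.4. Those at Rpn13, Rpt6, Rpt2, Prosbeta3, Rpn11, Prosbeta7, Rpt1 and Rpn8 ran from 34.1 to 47.4, and those at Prosalpha2, Prosalpha5, Prosbeta6, Rpt4, Rpn7 and Rpn12 from 26.7 to 28.9. Rpn11 encodes the deubiquitinase of the lid, Rpn13 a further ubiquitin receptor, and Rpt1, Rpt2, Rpt3, Rpt4 and Rpt6 the other ATPases. None of these regions reached a q of 0.01 in the pooled list. Prosalpha1, Prosbeta2 and Prosbeta4 had no pooled region within 1 kb, and all 18 main regulatory particle genes had one. A region of any strength was present at 34 of the 48 members, and at 61.1% of all protein-coding genes.

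The 16 testis-type paralogues gave little signal. A pooled region of any strength lay within 1 kb of 5 of the 16, against 29 of 32 main genes. Prosbeta2R2 had the strongest (50.1, rank 4831), 223 bp from its TSS; its region in replicate 3 (38.01, rank 3590) had a −log10 q of 2.36, and replicate 2 had none. Prosbeta2R2 shares a divergent promoter with CG1116, with 129 bp between the start sites. Rpt6R had 44.6 (rank 6095) at 124 bp, with 23.8 in replicate 2 (rank 4450) and 17.9 in replicate 3 (rank 16433). Rpn13R had 31.1 (rank 13796) at 635 bp, with 23.6 in replicate 2 (rank 4552) and no region in replicate 3. Prosbeta4R1 had 27.9 (rank 17963) at 348 bp, with no region in replicate 2 and 18.6 in replicate 3 (rank 15161). Rpt3R had 25.95 (rank 21085) at 136 bp, with 13.3 in replicate 2 (rank 22906) and 26.2 in replicate 3 (rank 7256). None of these passed a q of 0.01 in the pooled list.

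Prosalpha1R, Prosalpha3T, Prosalpha4T1, Prosalpha4T2, Prosalpha6T, Prosbeta2R1, Prosbeta4R2, Prosbeta5R1, Prosbeta5R2, Rpn12R and Rpt4R had no pooled region within 1 kb. The IDR summit nearest to a testis-type paralogue was 2910 bp away, at Prosalpha6T, and the median distance was 40849 bp. For the 23 main genes with no IDR peak the nearest summits were 1556 to 188304 bp away, with a median of 8075 bp. The nearest of all was at Rpn11, where an IDR peak of 134 lay 1556 bp from the TSS.

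**Figure D3:**
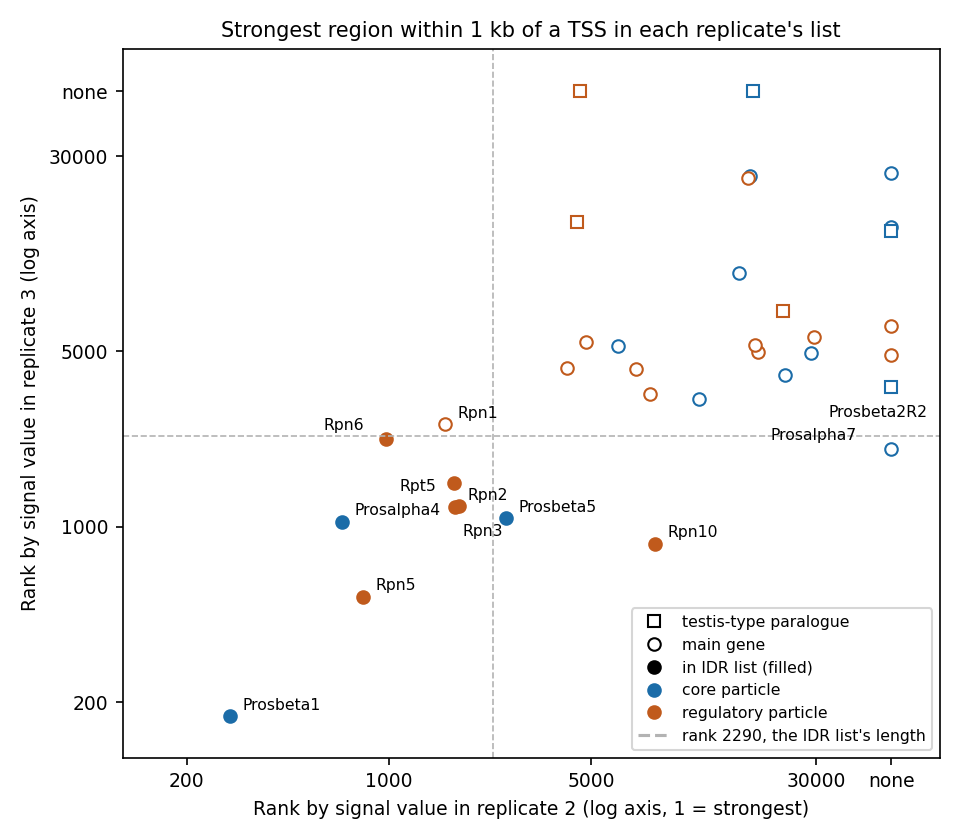
Rank by signal value of the strongest region within 1 kb of a TSS, in replicate 2 (horizontal, log axis) and in replicate 3 (vertical, log axis), for members with a region in at least 1 replicate. Squares are testis-type paralogues and circles main genes, filled where the gene is in the IDR list, and "none" marks a list with no region. Rpn10 and Prosbeta5 are the filled points outside the top 2290 of replicate 2, and no square lies inside the top 2290 of either list.

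Both replicates were set side by side at the deposited q of 0.01 or less. In replicate 3, which held 4186 such regions, 15 of 48 members had one (31.2%), and 25.6% of all protein-coding genes did. In replicate 2, with 1847 such regions, 8 of 48 had one (16.7%), and 12.1% of all genes did. By class, replicate 3 had 1 of 16 testis-type paralogues and 14 of 32 main genes, and replicate 2 had 0 of 16 and 8 of 32. In the core particle 6 of 14 main genes passed in replicate 3 and 2 of 14 in replicate 2. In the regulatory particle 8 of 18 passed in replicate 3 and 6 of 18 in replicate 2. The main core particle genes that passed in replicate 3 and not in replicate 2 were Prosalpha3, Prosalpha7, Prosbeta5 and Prosbeta7.

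In the pooled list 11 of 48 members passed that q (22.9%), and 21.3% of all protein-coding genes did. All 9 genes with an IDR peak were among them by construction, because every IDR peak is a pooled region at that q. The genes added were Rpn1 and Prosalpha7. When each replicate's 2290 strongest regions were taken, 8 members had one in replicate 2 and 10 in replicate 3, and the shares of all protein-coding genes were 14.4% and 15.9%. Prosbeta5 and Rpn10 were absent and Rpn1 was added in replicate 2, and Prosalpha7 was added in replicate 3.

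**Figure D4:**
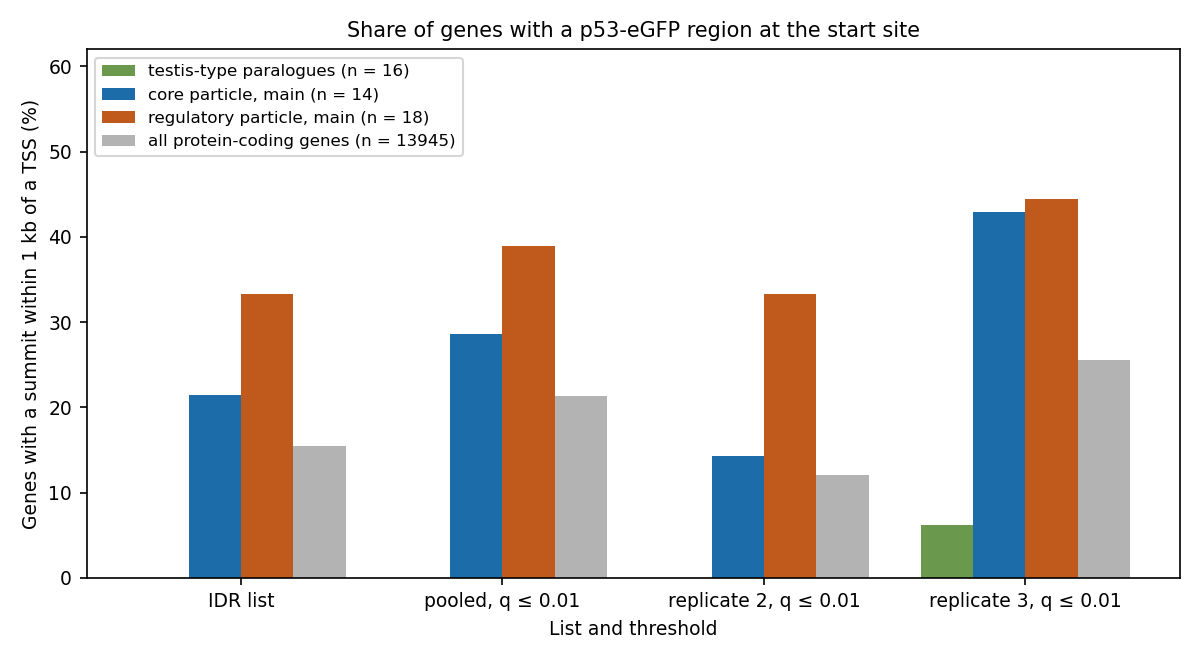
Percent of genes with a summit within 1 kb of a TSS in the IDR list, the pooled list and each replicate's list (the last 3 at a deposited q of 0.01 or less). Bars are testis-type paralogues, main core particle genes, main regulatory particle genes and all protein-coding genes, and an absent bar is 0. The testis-type share is above 0 in replicate 3 alone (1 of 16), and the main core particle share is 14.3% in replicate 2 and 42.9% in replicate 3.

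The promoters were searched for 7 words on both strands from 250 bases before to 49 after the outermost TSS of each gene. The word of DREF, a factor of housekeeping and growth promoters (TATCGATA), occurred in 12 of 48 members (25%) and in 9.36% of all protein-coding genes. It was in 0 of 16 testis-type paralogues, which allows up to 18.8%, and in 12 of 32 main genes (37.5%). The core particle had it in 6 of 14 main genes and the regulatory particle in 6 of 18. These counts describe the letters, are not matched for divergent neighbours and were not tested. Of the 1305 protein-coding genes with the word 798 had a divergent neighbour, and 36.2% of all protein-coding genes did.

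The sites are shown for the genes off the arm whose sequence is not printed here, 30 bases each on the gene's own strand, so that the flanks of the shared word can be compared. Capitals mark the DREF word.
Prosalpha6, chr2L:10221324-10221353, plus strand: cccgaatccctTATCGATAcccgatacaca
Prosbeta2, chr3L:14999930-14999959, plus strand: ccatgaatataTATCGATAcaatatcgatt
Prosbeta6, chr3L:16610444-16610473, minus strand: gtatgtataccTATCGATAacgtttaagca
Rpn3, chr2L:19051582-19051611, plus strand: tgttatcggagTATCGATAtcgaaaaggct
Rpn7, chr3R:22462033-22462062, minus strand: gcggtataattTATCGATAattttggggtc
Rpn9, chr3R:23733418-23733447, minus strand: gcccggttaaaTATCGATAttctcgcggat
Rpn12, chr3L:16582801-16582830, plus strand: ttgttaaaataTATCGATAttaaagcacaa
Rpt5, chr3R:23752819-23752848, plus strand: atcgctgtcacTATCGATAagcgccggcga
The word was centred within 43 bp of the TSS in Prosalpha6, Prosbeta2, Prosbeta6, Rpn7, Rpn9 and Rpt5, and 194 and 213 bp upstream in Rpn3 and Rpn12. The other 4 genes with the word in this window were Prosalpha3, Prosalpha5, Prosbeta1 and Rpn13.

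The DREF word was set beside the peaks. Of the 12 main genes with the word 3 had an IDR peak (25%), and of the 20 without it 6 had one (30%). Among all protein-coding genes the shares were 25.6% with the word and 14.5% without. None of these shares is matched for divergent neighbours. The word was sought at the outermost TSS only, while a peak could lie at any TSS, as at Rpn6, whose peak lay at an inner TSS. Within 100 bp of the summit the word was in 3 of the 9 member peaks, those of Prosbeta1, Rpn3 and Rpt5, and in 8.93% of IDR peaks near a coding TSS. At Rpt5 the word was 23 bp from the summit and at Prosbeta1 81 bp. At Rpn3 the word in the summit window was not the one shown above but another, 79 bp past the TSS and 94 bp from the summit, in the 5′ UTR: accgtaaaacgTATCGATAaattgaaacgt (chr2L:19051855-19051884).

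The word of M1BP, a factor of paused promoters (GGTCACAC), was in 0 of 16 testis-type paralogues and 5 of 32 main genes, which were Prosalpha2, Prosalpha4, Prosbeta3, Rpn1 and Rpn7, and in 7.70% of all genes. The antioxidant response element (TGACNNNGC), the word of the CncC and Maf factors that are known to raise proteasome gene expression in flies, was in 1 of 16 testis-type paralogues (Prosbeta4R2) and 5 of 32 main genes (Prosalpha2, Prosbeta3, Rpn1, Rpn7 and Rpt6), and in 8.63% of all genes. The GAGA factor word (GAGAG) was in 6 of 16 testis-type paralogues and 3 of 32 main genes, and in 29.7% of all genes. The TATA box word was in 5 of 16 testis-type paralogues and 13 of 32 main genes (45.8% of all genes), and the E-box (CACGTG) in none of the 48 (4.20%). The p53 half-site was in 2 of the 48, Prosalpha7 and Rpt5 (5.67%). Within 100 bp of the summit none of the 9 member peaks held the M1BP, GAGA factor, E-box or antioxidant response element word. Over all IDR peaks 4.72% held the M1BP word, 25.5% the GAGA factor word, 3.45% the E-box and 6.03% the antioxidant response element. Among IDR peaks near a coding TSS, the baseline used for DREF, these shares were 6.49%, 24.1%, 3.43% and 6.68%.

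Genes that work with the proteasome were taken from a list of 24 written by hand, of which 23 were matched to the annotation. Of these, 10 had an IDR peak (43.5%), and 15.5% of all protein-coding genes did. With summits within 500 bp the counts were 8 of these genes and 13.3% of all genes. The list was chosen with earlier results of these data known and was not matched for divergent neighbours, so the difference was not tested. The strongest lay at Ufd1, listed under its older symbol Ufd1-like, a cofactor of the p97 segregase (159, rank 489), and at TER94, the segregase itself, which extracts ubiquitinated proteins (137, rank 684). Pomp, an assembly chaperone of the core particle, had a peak of 125.2 (rank 851), and Uch-L5, a deubiquitinase of the regulatory particle, one of 115.2 (rank 1028). Ubqn, a shuttle factor that carries ubiquitinated proteins, had 100.4 (rank 1331), ntc, an F-box protein gene needed for caspase activation in spermatids, 84.9 (rank 1851), and Uba1, the ubiquitin-activating enzyme, 75.97 (rank 2274). RpS27A, a ribosomal protein made as a ubiquitin fusion, had 124.9 (rank 855).

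The regulators of the oxidative stress response were on the same list. Keap1, the inhibitor of CncC, had a peak of 126 (rank 829), 978 bp from a TSS, and maf-S, the partner of CncC, one of 78.7 (rank 2133), 614 bp from a TSS. The gene for CncC itself, cnc, had a pooled region of 75.1 (rank 2334), just outside the IDR list, and rngo, a Ddi1-type protease gene, one of 71.8 (rank 2548). REG, PI31, Usp14, Sem1, Txl, Npl4, Rad23, Ubi-p63E, RpL40 and Pngl had pooled regions with signal values from 23.3 to 57.9, and Ubi-p5E had none within 1 kb.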

How the data were processed

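Only the dm6 lists were used; the dm3 lists were not analysed here. Per the deposited provenance lists, each replicate gave 1 list of peaks and background as input for IDR, both replicates gave a pooled list, and the final list was selected by IDR; both replicates list the same control experiment, per the labels. Per the narrowPeak column order, the authors deposited a signal value, a −log10 q-value and a summit position (another measure) per region. No source used here names the aligner, the peak caller or the IDR threshold. Read depth is unknown, and intervals on shares cover counting error only.

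TSSs came from Ensembl release 115 (BDGP6), and sequence from RefSeq Release 6, the same assembly; every region ended within its chromosome. Genes on the 6 arms in the lists were counted. A summit within 1 kb of any TSS assigned a region to a gene. Shares carry 95% Wilson intervals, a count of 0 allows 3 of the total, and no test was run. Positions are 1-based. Both strands were searched for words, in promoters and up to 100 bp either side of a summit; the p53 half-site has ambiguous letters and is given by name, and DREF and E-box words read alike on both strands. Sequence from arm 2R is not printed. Every member is named, with full values for main genes with an IDR summit and testis-type paralogues with a pooled region. The members and lists were chosen with earlier results of these data known. Counting and word search were tested on simulated data with known answers. Python 3.11.15, pandas 2.3.3, NumPy 2.4.6 and SciPy 1.17.1 were used.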

Additional observations from a re-analysis of the deposited data

How the results depend on the processing

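With the 1145 strongest IDR peaks, members with a peak numbered 3 (Prosbeta1, Prosalpha4 and Rpn5), all of them main genes (3), with 1 in the regulatory particle; other ubiquitin-proteasome genes numbered 6, and 8.13% of protein-coding genes had a peak. The share of all genes was 27.2% with a divergent neighbour and 8.86% without, a division chosen after seeing the data. The DREF word was near the summit in 1 member peak within 50 bp, and in 12 members' promoters, a sequence window chosen after seeing the data. None of the other settings tried moved these counts by more than 1.5-fold: without replicate 3 or 2 (the 2290 strongest regions of the other replicate; 8 and 10 members), q of 0.01 or less in the pooled list, summits within 500 bp or 2 kb, 1 TSS per gene, any base within 1 kb, or words within 200 bp. Without replicate 3, 7 of the 9 members were kept, and without replicate 2 all 9. The pooled list at a q of 0.01 or less contains every IDR peak, so that setting could only add members. Within 2 kb Rpn11 was added. The testis-type count was 0 under each of these settings; with all replicate 3 regions at a q of 0.01 or less it was 1 (Prosbeta2R2). The promoter table of RefSeq was not used here, so that alternative was not run. No paired analysis was possible because there is 1 group. The number of reads behind a region is unknown and limits what a missing region shows.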
